A study of Mus musculus with 14 samples.

Results

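Akp3, Alpi and Alppl2 are the 3 protein-coding alkaline phosphatase genes clustered on mouse chromosome 1, less than 1 Mb from Atg16l1. They were taken by symbol from a table of 18781 genes, and they were chosen because Akp3 had the largest rise of all genes when Atg16l1 and Rnaseh2b were both deleted. The values of the double knockout therefore picked them and are given below as a description, with no test. Of the 3 genes, 2 (Akp3 and Alpi) passed the filter on low values, and Alppl2 did not.

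RNA was sequenced from organoids grown from small intestinal stem cells of mice, kept in IntestiCult medium and not treated. WT organoids (4 libraries) carried floxed alleles of both genes and no Cre. The other genotypes carried VillinCre+/-, a Cre driven by the Villin promoter of the intestinal epithelium, with floxed Atg16l1 (Atg16l1ΔIEC, 4 libraries), floxed Rnaseh2b (Rnaseh2bΔIEC, 2 libraries) or both (Atg16l1/Rnaseh2bΔIEC, 4 libraries). The labels of the single knockouts name no floxed allele of the other gene, so whether Rnaseh2bΔIEC organoids carried the floxed Atg16l1 locus of WT organoids was not stated. The age of the mice was not in the labels, and nothing said that libraries of a genotype came from separate animals, so p-values measure only the spread between these libraries. ATG16L1 is an autophagy protein, and RNASEH2B is a subunit of RNase H2, which removes ribonucleotides from DNA.

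Intestinal alkaline phosphatases are zinc enzymes held on the outer face of the brush border by a glycosylphosphatidylinositol (GPI) anchor. They remove phosphate from luminal substrates such as bacterial lipopolysaccharide and nucleotides, and their activity is a classical sign of enterocyte differentiation. In the mouse, Akp3 encodes the duodenal enzyme, Alpi encodes an enzyme made along the small intestine, and Alppl2 encodes the embryonic alkaline phosphatase.

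On GRCm38, Alppl2 (ENSMUSG00000026246) lies at chr1:87086694-87089928 on the minus strand and Alpi (ENSMUSG00000079440) at chr1:87098002-87101606 on the minus strand. Akp3 (ENSMUSG00000036500) lies at chr1:87124973-87127912 on the plus strand, so Alpi and Akp3 are transcribed away from each other. The gap was 8.1 kb between Alppl2 and Alpi and 23.4 kb between Alpi and Akp3. Atg16l1 starts 628.0 kb beyond the end of Akp3. The 250 bases before the RefSeq start of each gene are shown because they hold what the 3 promoters share. Capitals mark a pair of runs found in all 3, and in Akp3 and Alpi a match to CAAAGTC, the core of the sequence bound by HNF4 factors, which in Alpi extends to CAAAGTCCA.
Akp3, chr1:87124704-87124953, plus strand: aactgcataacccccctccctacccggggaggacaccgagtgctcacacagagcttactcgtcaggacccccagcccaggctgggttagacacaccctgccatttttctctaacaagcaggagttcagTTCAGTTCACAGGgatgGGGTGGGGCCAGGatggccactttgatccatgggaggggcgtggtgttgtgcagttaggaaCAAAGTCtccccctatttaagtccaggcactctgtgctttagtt
Alpi, chr1:87101607-87101856, minus strand: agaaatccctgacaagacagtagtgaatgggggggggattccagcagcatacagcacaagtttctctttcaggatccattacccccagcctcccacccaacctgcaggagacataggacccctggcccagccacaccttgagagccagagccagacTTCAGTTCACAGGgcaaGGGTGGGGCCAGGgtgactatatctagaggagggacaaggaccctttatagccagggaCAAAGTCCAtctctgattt
Alppl2, chr1:87089929-87090178, minus strand: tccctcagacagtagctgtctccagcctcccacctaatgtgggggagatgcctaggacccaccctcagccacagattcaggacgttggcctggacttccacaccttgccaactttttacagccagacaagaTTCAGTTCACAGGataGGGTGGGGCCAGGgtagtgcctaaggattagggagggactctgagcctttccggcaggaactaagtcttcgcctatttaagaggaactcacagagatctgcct

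The runs TTCAGTTCACAGG and GGGTGGGGCCAGG stood in the same order in each promoter, 4 bases apart in Akp3 and Alpi and 3 bases apart in Alppl2. Searched on both strands, the first run was in 9 of 32851 RefSeq windows of this length (0.0274%) and the second in 15 (0.0457%). Windows that held both numbered 3, and they were those of Akp3, Alpi and Alppl2. CAAAGTC began at position -44 from the start of Akp3 and -19 from that of Alpi, was not matched in Alppl2, and occurred in 3.84% of all windows. The longer CAAAGTCCA was matched in Alpi and not in the other two, and in 0.384% of all windows. TATTTAA began at -31 in Akp3 and -30 in Alppl2, and was in 4.18% of windows. The runs and motifs were chosen after the promoters had been read, and each match is only a description of letters.

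The transcripts are alike as well, which bears on how 50-base reads are assigned. Aligned Akp3 and Alpi transcripts were identical at 83.4% of bases, Alpi and Alppl2 at 79.8%, and Akp3 and Alppl2 at 78.8%. The longest exact run shared by Akp3 and Alpi is shown because a read inside it cannot be told apart between them. It is 68 bases of coding sequence in exon 2 of 11 of each gene, at chr1:87125202-87125269 on the plus strand in Akp3 and chr1:87101269-87101336 on the minus strand in Alpi.
Shared run: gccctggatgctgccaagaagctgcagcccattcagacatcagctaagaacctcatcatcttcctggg
Of 1631 words of 50 bases in the Akp3 transcript, 35 occurred exactly in another gene and 179 came within 2 mismatches of another member. For Alpi the numbers were 55 and 221 of 2288 (2.4% and 9.7%), and for Alppl2 they were 3 and 110 of 2043 (0.1% and 5.4%). Reads from these stretches are the part of each value that is uncertain.

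The deleted genes were lowest in the libraries labelled for them. Atg16l1 was 9.46 ± 0.05 (SD, n = 4) in WT organoids on the deposited log2 scale and 6.92 ± 0.29 (SD, n = 4) in Atg16l1ΔIEC, a difference of -2.54. It was 8.39 ± 0.19 (SD, n = 4) in Atg16l1/Rnaseh2bΔIEC, below every WT library but above every Atg16l1ΔIEC library. Rnaseh2b averaged 8.54 ± 0.13 (SD, n = 4) in WT organoids, against 7.18 ± 0.04 (SD, n = 2) in Rnaseh2bΔIEC and 7.81 ± 0.10 (SD, n = 4) in the double knockout. Both transcripts were thus higher in the double knockout than in the matching single knockout, by 1.46 for Atg16l1 (adjusted p = 2e-05, limma) and 0.63 for Rnaseh2b (adjusted p = 0.00074, limma). All listed enterocyte, Paneth, goblet, enteroendocrine and stem cell genes passed the filter, as did 4 of 6 tuft cell genes, while 3 of 10 stromal and immune genes passed the filter.

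Libraries also differed in sex and sequencing lane. By Xist and Ddx3y, WT libraries 1 and 2 were male and 3 and 4 female, Atg16l1ΔIEC 1 and 2 were female and 3 and 4 male, and both Rnaseh2bΔIEC libraries were male. Double knockout libraries 1 and 2 were male and 3 and 4 female. All WT libraries and double knockout libraries 3 and 4 were named for lane 1, and all others for lane 2. Libraries 1 and 2, and libraries 3 and 4, of a genotype also varied together across genes (correlation of deviations 0.31 to 0.85 over 6 such pairs), so pair, sex and, in the double knockout, lane cannot be told apart. Since every WT library was on lane 1 and without Cre, and every single knockout library was on lane 2 and with Cre, genotype, lane and Cre cannot be told apart between them. A fit with lane as a covariate takes the lane term from the double knockout libraries alone.

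Akp3 was lowest in Atg16l1ΔIEC and WT organoids, higher in Rnaseh2bΔIEC and highest in the double knockout. In WT organoids its log2 values were 8.97, 8.69, 7.47 and 7.57 in libraries 1 to 4, so the male pair was more than a unit above the female pair. In Atg16l1ΔIEC they were 8.16, 8.06, 8.07 and 8.02, all inside the WT range and much closer together. In Rnaseh2bΔIEC they were 9.41 and 9.21, above every WT and every Atg16l1ΔIEC library. In Atg16l1/Rnaseh2bΔIEC they were 9.58, 9.82, 10.50 and 10.27, above all 10 other libraries, an order that 2.66% of the 12802 genes tested showed. Genotype means were 8.18 ± 0.77 (SD, n = 4) in WT, 8.08 ± 0.06 (SD, n = 4) in Atg16l1ΔIEC, 9.31 ± 0.14 (SD, n = 2) in Rnaseh2bΔIEC and 10.04 ± 0.42 (SD, n = 4) in the double knockout. WT and Atg16l1ΔIEC, the lowest neighbours in this order, overlapped, and no other neighbouring genotypes did.

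Alpi followed another order of genotypes, with the double knockout below Rnaseh2bΔIEC. Its log2 values were 11.20, 10.95, 10.22 and 10.36 in WT and 10.72, 10.85, 11.31 and 11.01 in Atg16l1ΔIEC. They were 11.67 and 11.76 in Rnaseh2bΔIEC and 10.92, 11.41, 11.72 and 11.62 in the double knockout. The means were 10.68 ± 0.47 (SD, n = 4), 10.97 ± 0.26 (SD, n = 4), 11.71 ± 0.06 (SD, n = 2) and 11.42 ± 0.36 (SD, n = 4) in that order of genotypes. Rnaseh2bΔIEC was thus the highest genotype for Alpi, and the double knockout overlapped each of the other 3 genotypes. In bulk RNA, more cells of a type and more RNA per cell cannot be told apart.

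Alppl2, the embryonic gene, lay between 1.84 and 1.95 in all 14 libraries. Its means were 1.91, 1.94, 1.89 and 1.87 in WT, Atg16l1ΔIEC, Rnaseh2bΔIEC and double knockout organoids. Low values were compressed for most genes. Genes averaging between 1 and 2 had a median SD of 0.025 over the libraries, while those averaging between 8 and 9 had 0.116. Alppl2 was below the filter, and no test was made. Alpl, the tissue-nonspecific alkaline phosphatase on chromosome 4, was as low (1.65 to 1.70 as genotype means), and Akp-ps1, a pseudogene of the cluster, stood at -1.32 in every genotype.

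**Figure D1:**
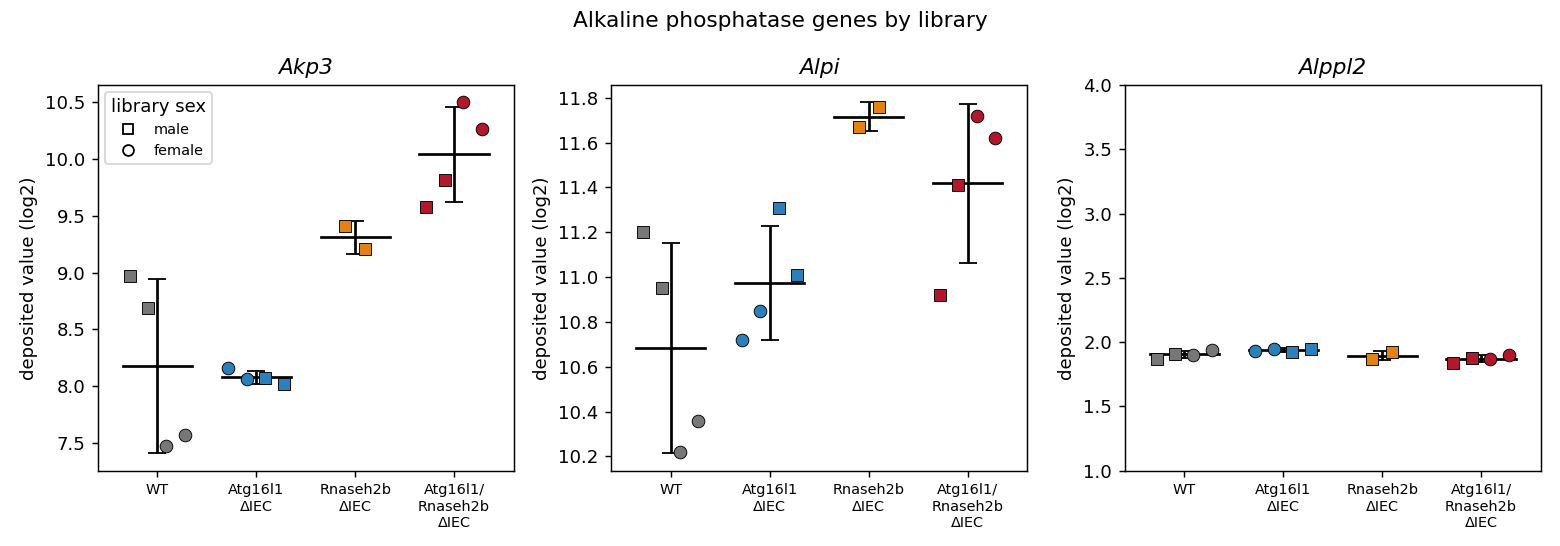
Deposited log2 values of Akp3, Alpi and Alppl2 in each of the 14 libraries by genotype, with male libraries as squares and female libraries as circles; horizontal bars are genotype means and error bars are SD. Akp3 is highest in the 4 double knockout libraries (9.58 to 10.50), Alpi is highest in the 2 Rnaseh2bΔIEC libraries among genotype means (11.71), and Alppl2 stays between 1.84 and 1.95.

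The single knockouts were compared with WT, which the choice of genes did not use directly, although these comparisons share the 4 WT libraries with the one that did. Both genes tested were higher in Rnaseh2bΔIEC than in WT, against a background of 26.7% of all genes called in either direction and 14.4% called higher. Akp3 was higher by 1.13 on the log2 scale (SE 0.36, 95% interval 0.35 to 1.91), or 2.19-fold, with an adjusted p of 0.035 (limma). Alpi was higher by 1.03 (SE 0.26, 95% interval 0.46 to 1.60), or 2.04-fold, with an adjusted p of 0.012 (limma). For both genes the 2 Rnaseh2bΔIEC libraries exceeded the 4 WT libraries without overlap, which also held for 28.4% of all genes tested. Among the male libraries alone, 2 of each genotype, the differences were smaller, 0.48 for Akp3 and 0.64 for Alpi. Rnaseh2bΔIEC had no female library.

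Both calls depended on the libraries kept, and that of Akp3 also on the fit. It was lost (limma) with no filter on low values (adjusted p = 0.054), with sex as a covariate (adjusted p = 0.064), when just the WT and Rnaseh2bΔIEC libraries were fitted (adjusted p = 0.081) and with the replicate number as a block (adjusted p = 0.11), all of which the Alpi call passed. The Akp3 call was also lost (limma) without Rnaseh2bΔIEC library 1 (1.03, adjusted p = 0.2) or 2 (1.23, adjusted p = 0.12), and without WT library 3 (0.90, adjusted p = 0.078) or 4 (0.93, adjusted p = 0.079). The Alpi call was lost (limma) without Rnaseh2bΔIEC library 1 (1.08, adjusted p = 0.077) or 2 (0.99, adjusted p = 0.096). Each of these fits without a Rnaseh2bΔIEC library leaves 1 library of that genotype, which is assumed to vary like the other genotypes. With each pair of libraries averaged into 1 value, both calls were lost, and 0 of all genes were called in this comparison by limma (2103 at an unadjusted p under 0.05), a fit that has fewer values and again 1 value for Rnaseh2bΔIEC.

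In Atg16l1ΔIEC against WT neither gene passed the threshold (limma, 0 of 2 tested, and 0 at an unadjusted p under 0.05), against 19.1% of all genes called. Akp3 differed by -0.10 (95% interval -0.74 to 0.54, adjusted p = 0.84, limma) and Alpi by 0.29 (95% interval -0.18 to 0.76, adjusted p = 0.37, limma). These intervals do not show that the levels were alike. The sign of the Akp3 difference was not stable, as it was 0.59 with lane as a covariate (adjusted p = 0.43, limma), and ran from -0.33 without WT library 3 to 0.16 without WT library 1. With lane as a covariate the Alpi difference was 0.80 (adjusted p = 0.14, limma). By sex, with 2 libraries per sex and genotype, Akp3 in Atg16l1ΔIEC was below WT in the males (-0.79) and above WT in the females (0.59). The male and female pairs averaged 8.83 and 7.52 in WT, and 8.04 and 8.11 in Atg16l1ΔIEC.

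Between the single knockouts, which were sequenced on the same lane, Rnaseh2bΔIEC was higher for Akp3 by 1.23 (95% interval 0.45 to 2.01, adjusted p = 0.059, limma) and for Alpi by 0.74 (95% interval 0.17 to 1.31, adjusted p = 0.11, limma). Neither passed the threshold (0 of 2 by limma, 2 of 2 at an unadjusted p under 0.05, 6.81% of all genes called). Fitted within that lane alone, which leaves out the WT libraries and double knockout libraries 3 and 4, both passed, with adjusted p of 0.00018 for Akp3 and 0.033 for Alpi (limma). With lane as a covariate Akp3 passed (adjusted p = 0.029, limma) and Alpi did not (adjusted p = 0.061, limma). Neither passed with sex as a covariate (adjusted p = 0.096 and 0.18, limma) or with the replicate block (adjusted p = 0.17 and 0.21, limma). All these fits treat libraries of a pair as separate values, although paired libraries varied together. Averaging pairs left 1 value for Rnaseh2bΔIEC, with differences of 1.23 and 0.74. Without Rnaseh2bΔIEC library 1 or 2, the difference was 1.13 or 1.33 for Akp3 and 0.79 or 0.70 for Alpi, again from 1 library of that genotype.

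In the double knockout, Akp3 exceeded WT by 1.86 on the log2 scale, or 3.64-fold, which put it first of 12802 genes. The genes ranked next were Clu (1.54), 2210407C18Rik (1.38), Sult6b2 (1.36), Dmbt1 (1.33) and Msln (1.20), none of them on chromosome 1. Against Atg16l1ΔIEC the Akp3 difference was 1.96, again the highest of all genes, and against Rnaseh2bΔIEC it was 0.73, rank 94. For Alpi the differences were 0.73 from WT (rank 40), 0.44 from Atg16l1ΔIEC (rank 245) and -0.30 from Rnaseh2bΔIEC, and the libraries overlapped each time. These comparisons share the double knockout libraries that chose the genes.

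The size of the difference depended on which pair of libraries was read. Among males, Akp3 was 8.83 in WT and 9.70 in the double knockout, a difference of 0.87. Among females, the values were 7.52 and 10.38, a difference of 2.86. For Alpi the differences were 0.09 in males, where libraries overlapped, and 1.38 in females. The females of these 2 genotypes were all on lane 1, while the males were split by lane. The most closely matched set was the male libraries of lane 2, in pairs from 3 genotypes. There Akp3 was 8.04 in Atg16l1ΔIEC, 9.31 in Rnaseh2bΔIEC and 9.70 in the double knockout. Alpi in the same 6 libraries was 11.16, 11.71 and 11.16.

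Akp3 and Alpi were also compared inside each library, which removes what a library does to both. Alpi exceeded Akp3 by 1.22 to 1.59 on the log2 scale in the double knockout (1.38 ± 0.16, SD, n = 4). It exceeded Akp3 by 2.24 to 3.24 in the 10 other libraries. Per kb of annotated exon, Alpi stood 2.09 to 2.71 times as high as Akp3 in the double knockout and 4.23 to 8.51 times elsewhere. The ratio of levels is less certain than its change, since the annotated Akp3 model of 2099 bases ends before the RefSeq one. In both sexes the double knockout was below WT in this difference, by -0.78 in males and -1.49 in females. The ratio was chosen after the values had been seen, and it holds the Akp3 values that chose the genes.

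Enterocyte genes, which mark the cells that make these enzymes, were higher in Rnaseh2bΔIEC, as Akp3 and Alpi were, but not in the double knockout. In Rnaseh2bΔIEC against WT, 18 of 20 enterocyte genes rose and 0 fell (median 0.82, against 0 over all genes, of which 26.7% were called). They were led by Lct, lactase, at 1.56 (adjusted p = 0.0063, limma), Slc2a5, a fructose transporter, at 1.44 (adjusted p = 0.00088, limma) and Slc15a1, a peptide transporter, at 1.43 (adjusted p = 0.001, limma). The count was 4 with lane as a covariate and 0 with pairs averaged. In Atg16l1ΔIEC, 3 of 20 rose (19.1% of all genes called), Slc2a5 (0.71), the trehalase gene Treh (0.65) and the aminopeptidase gene Enpep (0.53). In the double knockout against WT, 3 of 20 fell and 0 rose (median -0.13, 16.1% of all genes called), namely sucrase-isomaltase, Sis (-0.57), the glucose transporter Slc5a1 (-0.48) and the peptidase Dpp4 (-0.38). Against Rnaseh2bΔIEC, 17 of 20 fell in the double knockout (median -1.07, 25.5% of all genes called), led by Lct (-1.85), Fabp1 (-1.64) and Apoa4 (-1.53).

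**Figure D2:**
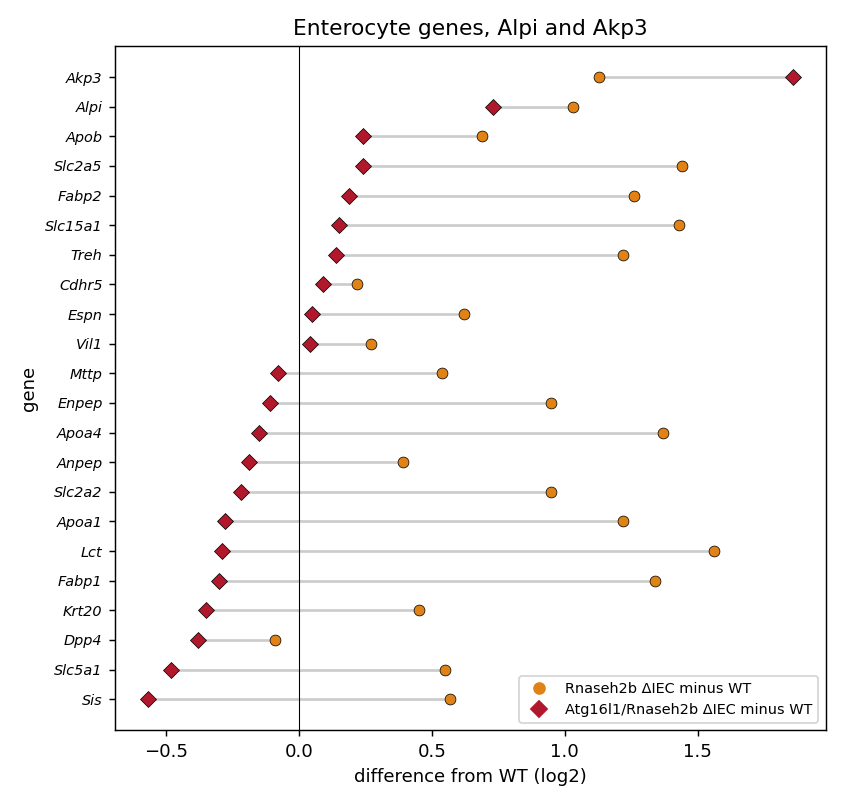
Log2 differences from WT of the 20 enterocyte genes, Alpi and Akp3 in Rnaseh2bΔIEC (circles) and Atg16l1/Rnaseh2bΔIEC (diamonds), 1 gene per line. Akp3 is the gene whose diamond lies to the right of its circle (1.86 against 1.13), while for Lct the pair reads 1.56 and -0.29. The Akp3 diamond is the value for which that gene was chosen.

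The mean of the 20 enterocyte genes averaged 12.34 ± 0.22 (SD, n = 4) for WT, 12.64 ± 0.26 (SD, n = 4) for Atg16l1ΔIEC, 13.19 ± 0.07 (SD, n = 2) in Rnaseh2bΔIEC and 12.23 ± 0.22 (SD, n = 4) in the double knockout. Over the 10 libraries other than the double knockout, the correlation of this mean was 0.96 with Alpi and 0.75 with Akp3. Over all 14 libraries it was 0.45 with Alpi and -0.08 with Akp3. The double knockout libraries are what separates these values. With genotype means removed, the correlation over the 14 libraries was 0.52 with Alpi and 0.26 with Akp3. Akp3 stood -2.72 to -1.55 from the enterocyte mean in the double knockout libraries and -4.88 to -3.63 from it in the others. Alpi stood -1.33 to -0.33 from it in the double knockout and -1.95 to -1.39 elsewhere, the 2 female libraries being the nearest. The points share libraries, and this measure was chosen after the values had been seen. The double knockout values of Akp3 also chose the gene. Its distance from the enterocyte mean there, and its lower correlation over all 14 libraries, therefore follow in part from that choice.

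**Figure D3:**
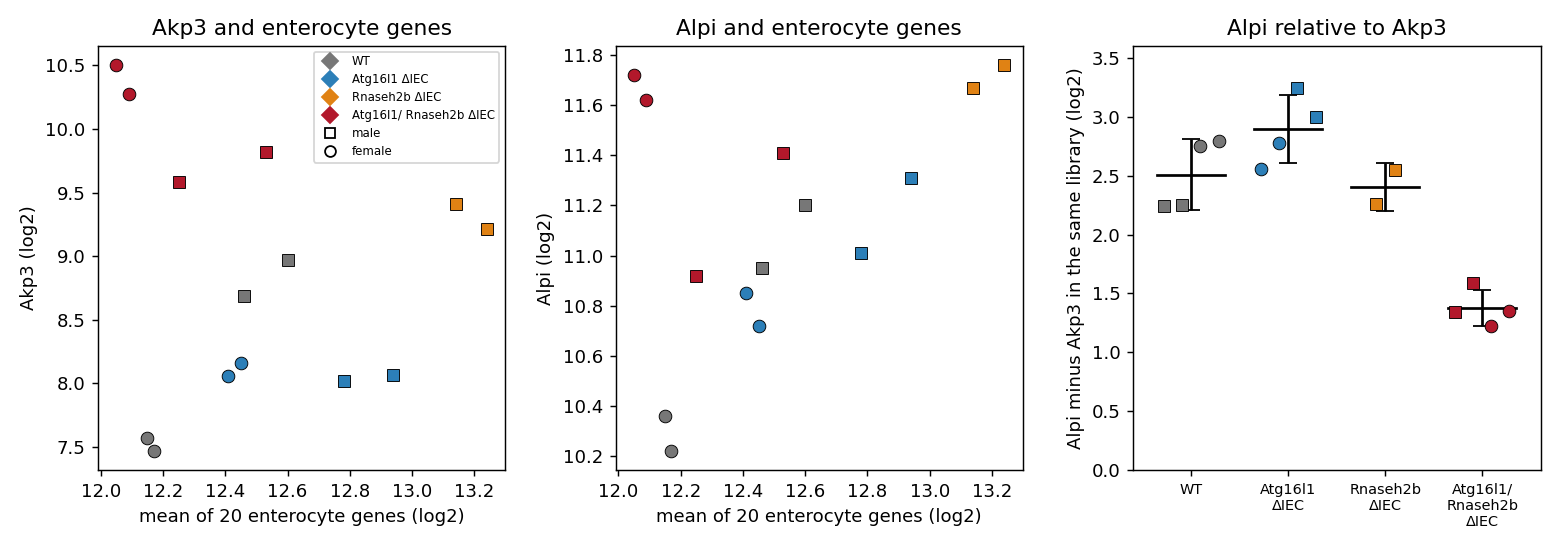
Left and middle, Akp3 and Alpi (log2) against the mean log2 value of 20 enterocyte genes, 1 point per library; right, Alpi minus Akp3 in each library by genotype, with means and SD. The 4 double knockout points leave the trend of the other 10 upwards for Akp3 and, by less, for Alpi. That trend includes differences between genotypes, and the double knockout values of Akp3 chose the gene. Alpi minus Akp3 is 1.22 to 1.59 in the double knockout and 2.24 to 3.24 elsewhere.

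Markers of other epithelial cells differed between the double knockout and WT as follows. Of 8 Paneth cell genes, 4 rose (16.1% of all genes called), the protease gene Mmp7 (0.75), the lectin gene Itln1 (0.64) and the defensin genes Defa17 (0.65) and Defa24 (0.56), and defensin reads are uncertain because the family is nearly identical. The count was 2 with no filter or with the replicate block, 1 with lane as a covariate and 0 with pairs averaged. Of 7 goblet cell genes 1 fell, Clca1 (-0.50), while the median of the list was 0.30. The mean of the goblet list ran from 12.14 to 12.50 in the double knockout, 12.04 to 12.37 in WT and 11.46 to 11.74 in the single knockouts. Of 8 stem cell genes 2 fell, Olfm4 (-1.51) and Rgmb (-0.35), with a list median of -0.01. By limma, 0 of 7 enteroendocrine, 0 of 4 tuft and 0 of 3 stromal and immune genes passed (3, 0 and 1 at an unadjusted p under 0.05). The mean of the Paneth list ranged from 10.40 to 10.80 in the double knockout and from 9.61 to 10.31 elsewhere, and its average was 10.09 in Rnaseh2bΔIEC and 10.04 in WT. The part of Paneth and goblet cells in the Akp3 values was not tested. With pairs averaged, 0 of 12802 genes were called in this comparison by limma (1311 at an unadjusted p under 0.05).

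In Rnaseh2bΔIEC and the double knockout, the tested genes around the cluster differed from WT by less than Akp3 did, except Ugt1a8 in Rnaseh2bΔIEC. No gene could rise more than Akp3 in the double knockout, since Akp3 was chosen for the largest rise there. Of 35 other genes within 1 Mb of Atg16l1 in the table, 21 could be tested. In the double knockout against WT, 4 rose, led by Arl4c (0.36), Ugt1a6b (0.22) and Ugt1a8 (0.21), and 3 fell, Spp2 (-0.44), Hjurp (-0.21) and Efhd1 (-0.20), with a median of 0.01, where 16.1% of all genes were called. In Atg16l1ΔIEC 8 of 21 passed (5 higher and 3 lower, 19.1% of all genes called), and in Rnaseh2bΔIEC 10 of 21 passed (4 higher and 6 lower, 26.7% of all genes called). The largest were Ugt1a8 (-1.54) and Ugt1a7c (0.65) in Rnaseh2bΔIEC, glucuronosyltransferase genes that share their last exons with the rest of the Ugt1a locus, so their reads are uncertain. Ecel1, the nearest protein-coding neighbour of Akp3, was below the filter.

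**Figure D4:**
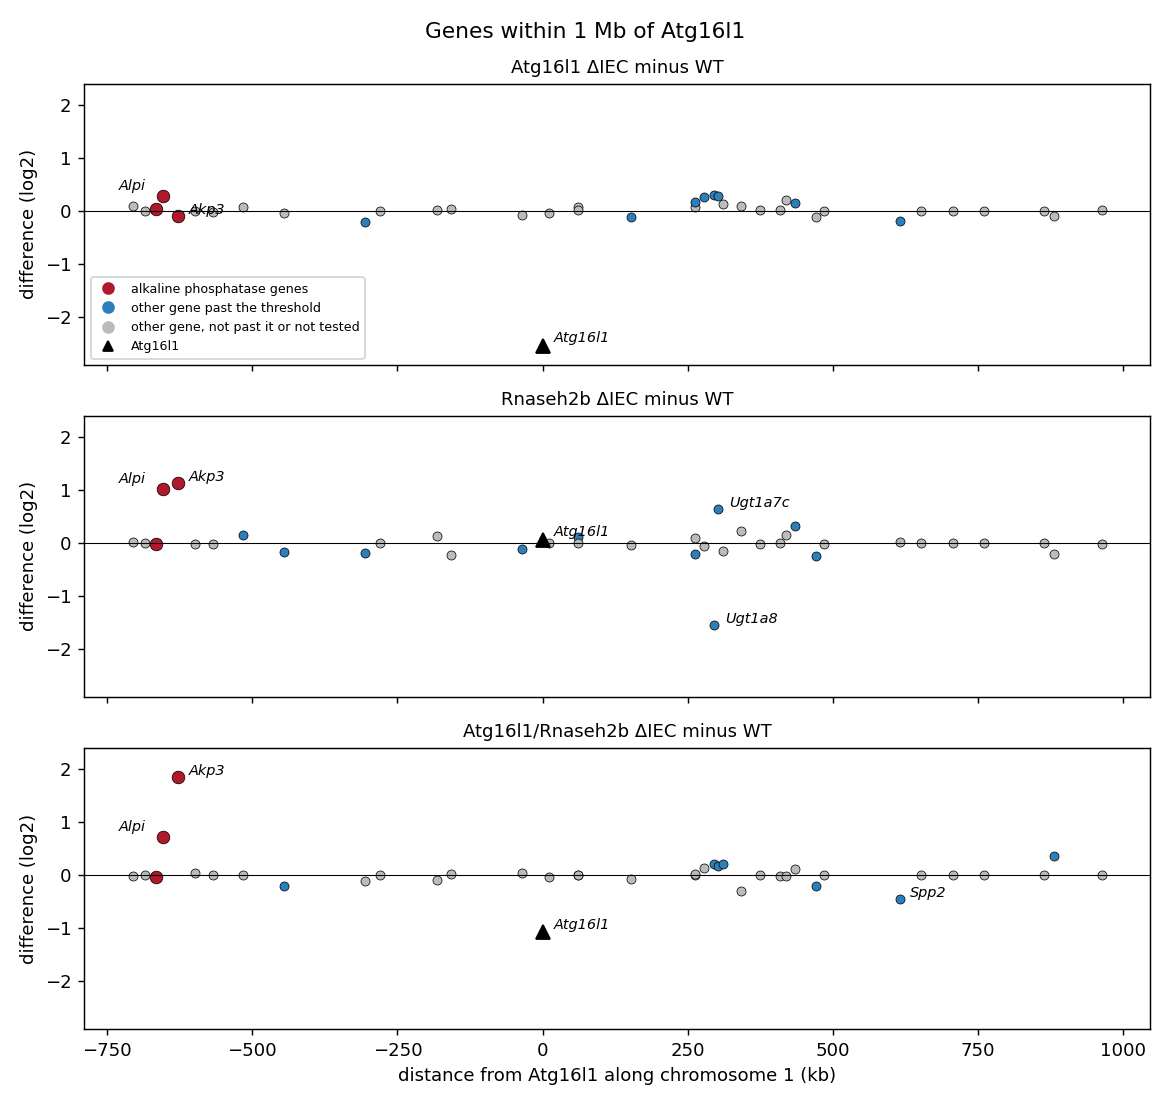
Log2 differences from WT of genes within 1 Mb of Atg16l1, by distance from Atg16l1 in kb, for each knockout genotype. Red points are the alkaline phosphatase genes and the triangle is Atg16l1. Blue points are other genes past the threshold, and grey points are genes not past it or not tested. Akp3 reaches 1.13 and 1.86 in the middle and lower panels. The next highest neighbour there, apart from Alpi, is Ugt1a7c (0.65) and Arl4c (0.36), respectively. Akp3 was chosen for the largest rise in the double knockout.

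Transcription factors that are known to act on intestinal alkaline phosphatase genes differed from WT by at most 0.57 on the log2 scale where they passed the threshold. In Rnaseh2bΔIEC against WT, 3 of 11 passed (26.7% of all genes called), with Hnf4g (0.55, adjusted p = 0.0035, limma) and Rxra (0.31) higher and Klf4 (-0.57, adjusted p = 0.0061, limma) lower. In Atg16l1ΔIEC, 3 of 11 passed (19.1% of all genes called), with Rxra (0.26) higher and Klf4 (-0.46) and Cdx2 (-0.14) lower. In the double knockout, 3 of 11 passed and all were lower (16.1% of all genes called), the thyroid hormone receptor gene Thra (-0.27), Rxra (-0.17) and Cdx2 (-0.15). Klf4, which activates the human enzyme's gene, averaged 10.19 ± 0.20 (SD, n = 4) in WT and 9.88 ± 0.20 (SD, n = 4) in the double knockout. Hnf4g, an HNF4 factor, was 11.59 ± 0.02 (SD, n = 2) in Rnaseh2bΔIEC and 10.91 ± 0.15 (SD, n = 4) in the double knockout. In the same 2 genotypes Alpi averaged 11.71 and 11.42, with overlapping libraries, and Akp3 averaged 9.31 and 10.04. Whether these factors act on either gene in these organoids was not tested.

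Genes for GPI anchoring and for loading zinc, which the enzymes need to reach the surface in active form, differed from WT by at most 0.57 where they passed the threshold. In Rnaseh2bΔIEC, 5 of 11 passed (26.7% of all genes called), with Pigk (0.20), the zinc transporter gene Slc30a6 (0.19) and Pigs (0.11) higher, and Piga (-0.57) and Pgap1 (-0.47) lower. In Atg16l1ΔIEC, 3 of 11 passed (19.1% of all genes called), with Pigt (0.14) higher and Pgap1 (-0.48) and Piga (-0.47) lower. Pigt (0.16) and Pigb (0.15) passed in the double knockout, 2 of 11 and both higher (16.1% of all genes called). With lane as a covariate these counts were 0, 1 and 0. Piga, whose protein acts in the first sugar step of the anchor, differed between the library pairs of the double knockout. It was 9.80 and 9.81 in the male pair on lane 2 and 10.15 and 10.09 in the female pair on lane 1. Pgap1 did likewise (11.61 and 11.68 in the male pair, 12.14 and 12.04 in the female pair), and so did Klf4 (9.65 and 9.77, against 10.03 and 10.06). In WT, all on lane 1, Klf4 was 9.97 and 10.07 in the male pair and 10.38 and 10.36 in the female pair. Piga there was 10.10 and 10.11 against 10.27 and 10.27. In Atg16l1ΔIEC, all on lane 2, Klf4 was 9.69 and 9.69 in the male pair and 9.70 and 9.87 in the female pair. Piga there was 9.77 and 9.69 against 9.67 and 9.71. Pair, sex and lane cannot be told apart in the double knockout libraries.

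Of 10 other genes listed as surface phosphatases and nucleotidases, 8 could be tested, among them Acp1, which encodes a cytosolic phosphatase. In Rnaseh2bΔIEC, 4 passed (26.7% of all genes called), with Enpp3, an ectonucleotide pyrophosphatase, higher by 1.19 (adjusted p = 1e-05, limma) and the 5'-nucleotidase gene Nt5e (-1.25), Entpd3 (-0.26) and Acpp (-0.24) lower. Enpp3 levels were 7.41 ± 0.16 (SD, n = 4) in WT organoids, 8.60 ± 0.07 (SD, n = 2) in Rnaseh2bΔIEC and 7.62 ± 0.10 (SD, n = 4) in the double knockout. Nt5e also differed between the library pairs of the double knockout. It was 6.46 and 6.59 in the male pair on lane 2 and 7.91 and 7.92 in the female pair on lane 1. In Atg16l1ΔIEC, 3 passed (19.1% of all genes called), Entpd8 (0.44) and Acp1 (0.10) higher and Enpp1 (-0.23) lower. Only Entpd2 (-0.43), of the 8, passed in the double knockout (16.1% of all genes called).

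The genes whose values were most like those of Akp3 over the 14 libraries were Ctnnb1 (Pearson r = 0.96), Plut (0.95), Kank3 (0.94), Ccp110 (0.93) and Capn11 (0.92). Their rises in the double knockout were smaller than that of Akp3, which follows from its choice as the gene that rose most. Ctnnb1, the beta-catenin gene, ran only from 14.46 in Atg16l1ΔIEC to 14.55 in the double knockout, and Ccp110, a centriole protein gene, from 7.90 to 8.69. For Alpi they were Aprt (0.93), Bin1 (0.93), Cdc14b (0.91), Mgam2-ps (0.90) and Etnk1 (0.90). Akp3 and Alpi had r = 0.80 with each other, rank 56 of 12801 genes for Akp3 and rank 38 for Alpi, and r = 0.86 after genotype means were removed. Within genotypes these values follow the pairs of libraries described above, and they carry no test.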

How the data were processed

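RNA of 14 small intestinal organoid libraries (TruSeq Stranded mRNA) was read. Per the labels, the authors' tools were cutadapt for trimming, TopHat2 for alignment on GRCm38, HTSeq for counting and DESeq2, without versions. The deposited values are on a log2 scale with an unnamed transformation that compresses low genes, and 16.9% are below 0. The depth is unknown, so no count model was run and precision rests on the number of libraries. The authors left out 2 further Rnaseh2bΔIEC samples for their read counts. Symbols from GENCODE M21 matched 99.7% of identifiers.

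The 12802 genes averaging 10 or more on the linear scale were fitted with limma 3.58.1 in R 4.3.3, with 1 mean per genotype over all 14 libraries, a mean trend and Benjamini-Hochberg adjustment at 0.05. The code was tested on simulated data. Sequences are from RefSeq on GRCm38.p6 (promoters) and GENCODE M21 (transcripts), aligned with biopython 1.88. Figures were drawn with matplotlib 3.10.9. Protein sequences were not used here.

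Members and lists were chosen with earlier results of these data known. Named genes are the members, the deleted genes, neighbours past the threshold in the double knockout, up to 3 rises and 3 falls per list and comparison, and the 5 most correlated genes per member. Ecel1, Akp-ps1, the Ugt1a genes in Rnaseh2bΔIEC and the genes ranked below Akp3 were named after their values were seen. Counts of called genes were computed for 72 combinations of list and comparison, and the 27 given were chosen after seeing how alternatives moved them. Of those 27, 26 moved by over 1.5 times under at least 1 alternative, and of the 45 not given, 42 did. Alternatives were a pseudocount of 5, no filter, a filter of 50, upper quartile scaling, lane as a covariate, fits of only the groups compared or of 1 lane, the replicate number as a block, and leaving out each library. Averaging paired libraries, and a sex term, were added once the data had been seen.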

Additional observations from a re-analysis of the deposited data

Results flagged for a closer look

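Akp3 in Atg16l1ΔIEC differed from WT in opposite directions by sex of the library, by -0.79 in the 2 male pairs and by 0.59 in the 2 female pairs. Every library was on the stated side, but the share of all genes that do so was not computed. Sex cannot be told apart from pair here. All WT libraries were on lane 1 and all Atg16l1ΔIEC libraries on lane 2. The difference between the sexes was not tested.

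Among 171 groups of 4 libraries over 57 named genes, 10 held a library far from the other 3, and chance alone gives about 1 in 20. They were the highest values of Atg16l1 in WT library 2 (9.54), of Fabp1 (14.74) and Rxra (11.79) in double knockout library 2, of Klf4 (9.87) and Entpd3 (5.37) in Atg16l1ΔIEC library 2, of Gigyf2 in Atg16l1ΔIEC library 1 (11.62), and of Defa17 (9.87) and Defa24 (13.71) in double knockout library 1. The other 2 were the lowest values of Thra in WT library 3 (11.66) and of Hnf4a in double knockout library 3 (14.63). None was a value of Akp3, Alpi or Alppl2.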

How the results depend on the processing

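Values are given where an alternative ended or gained a call, moved a count by over 1.5 times, turned a sign or shifted a low value. For Akp3 in Rnaseh2bΔIEC against WT, the call was lost (limma) with no filter (1.13, adjusted p = 0.054), with only the groups compared (1.13, adjusted p = 0.081), with pairs averaged (1.13, adjusted p = 0.35), with sex as a covariate (1.04, adjusted p = 0.064) and with the replicate block (1.02, adjusted p = 0.11), and lane as a covariate gave 1.82. Leaving out each library gave 0.90 to 1.40. The Alpi call there was lost with pairs averaged (1.03, adjusted p = 0.27, limma), and leave-one-out values ran from 0.88 to 1.20. In Rnaseh2bΔIEC against Atg16l1ΔIEC, Akp3 (1.23) passed with lane as a covariate, with only the groups compared and within 1 lane, and Alpi (0.74) with the latter pair. Leave-one-out values of Akp3 there ran from 1.13 to 1.33, and it passed without WT library 1, 3 or 4 or double knockout library 1. Described values of Akp3 in the double knockout against WT ran from 1.63 to 2.13 with a library left out and were 2.21 with lane as a covariate. Akp3 in Atg16l1ΔIEC against WT, which was not called, turned from -0.10 to 0.59 with lane as a covariate and ran from -0.33 to 0.16 with a library left out. Alppl2 differences moved to 0.06 (Atg16l1ΔIEC against WT) and 0.01 (Rnaseh2bΔIEC against WT) with lane as a covariate, and to -0.02 (Rnaseh2bΔIEC) and -0.03 (double knockout) against Atg16l1ΔIEC with a pseudocount of 5. With a library left out they ran from -0.04 to 0.01 in Rnaseh2bΔIEC against WT, from -0.07 to -0.02 against Atg16l1ΔIEC, and from -0.05 to 0.00 in the double knockout against Rnaseh2bΔIEC.

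Counts of called genes (limma) moved as follows. With lane as a covariate they were 1586 of all genes, 2 neighbours, 1 regulator, 1 anchoring gene and 0 enterocyte genes in Atg16l1ΔIEC against WT, 1504 of all genes, 4 enterocyte, 2 phosphatase and 0 anchoring genes in Rnaseh2bΔIEC against WT, 1622 of all genes between the single knockouts, and 6 enterocyte, 2 goblet, 1 Paneth, 1 enteroendocrine, 1 tuft, 0 anchoring and 0 phosphatase genes in the double knockout against WT. With pairs averaged they were 1 of all genes in Atg16l1ΔIEC against WT, 2 between the single knockouts and 0 in the other comparisons, and every list count that was above 0 became 0, a fit with fewer values (1579, 789, 2103, 1311 and 2044 genes at an unadjusted p under 0.05 in Atg16l1ΔIEC and between the single knockouts, in Rnaseh2bΔIEC and the double knockout against WT, and in the double knockout against Rnaseh2bΔIEC). Replicate numbers did not pair libraries across genotypes (correlation of deviations -0.41 to 0.46, over 0.1 in 7 of 18 pairs). The replicate block gave 424 of all genes between the single knockouts, 11 enterocyte and 2 phosphatase genes in Rnaseh2bΔIEC against WT, and 1 enterocyte, 2 Paneth, 5 regulator and 2 phosphatase genes in the double knockout against WT. With only the groups compared, the double knockout against WT gave 1260 of all genes, 4 neighbours, 0 anchoring and 0 phosphatase genes, and Atg16l1ΔIEC gave 5 enterocyte genes. Within 1 lane, the double knockout against WT gave 1311 of all genes, 4 neighbours, 7 enterocyte, 2 goblet, 3 enteroendocrine, 1 tuft and 0 anchoring genes. Upper quartile scaling gave 13 neighbours and 5 enterocyte genes in Atg16l1ΔIEC. A filter of 50 gave 6 neighbours in Rnaseh2bΔIEC and 3 in the double knockout. Sex as a covariate gave 12 enterocyte genes in Atg16l1ΔIEC, 2 phosphatase genes in Rnaseh2bΔIEC, and 7 enterocyte, 2 goblet, 2 enteroendocrine, 5 regulator and 3 phosphatase genes in the double knockout. No filter gave 1 enterocyte, 2 Paneth and 0 phosphatase genes in the double knockout and 1 phosphatase gene in Atg16l1ΔIEC. The cause of these shifts, that under averaging of pairs included, was not tested.

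With a library left out, counts of all genes ran from 1135 to 3832 (Rnaseh2bΔIEC against WT), 90 to 1105 (between the single knockouts), 1001 to 2074 (double knockout against WT) and 757 to 3288 (double knockout against Rnaseh2bΔIEC). Neighbours ran from 4 to 10 in Atg16l1ΔIEC, 4 to 11 in Rnaseh2bΔIEC and 4 to 8 in the double knockout, against WT. Enterocyte genes ran from 1 to 6, 7 to 19 and 1 to 4 in the same comparisons, and 9 to 19 in the double knockout against Rnaseh2bΔIEC. In the double knockout against WT, Paneth genes ran from 1 to 4, goblet from 1 to 3, enteroendocrine, tuft and stromal or immune from 0 to 1, regulators from 1 to 5, anchoring genes from 0 to 3 and phosphatases from 0 to 2. Anchoring genes ran from 1 to 5 and phosphatases from 1 to 4 in Rnaseh2bΔIEC, and phosphatases from 0 to 4 in Atg16l1ΔIEC. With 2 Rnaseh2bΔIEC libraries and unknown depth, the table limits what can be said of small differences and of low genes such as Alppl2.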
